A study of Mus musculus with 16 samples.

Results

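The NCoR corepressor complex was followed through the H3K27 acetylation (H3K27ac) of the genes of its 5 core subunits, Ncor1, Hdac3, Tbl1x, Tbl1xr1 and Gps2, in mouse liver. A region of acetylated chromatin was counted for a subunit gene when its midpoint lay inside the gene, or lay in no gene and within 50 kb of it as the nearest protein-coding gene. This gave 26 regions of 52645 and 5 genes of the 11595 that received a region. Tbl1xr1 held 15 of these regions, Ncor1 6, Tbl1x 3, Hdac3 1 and Gps2 1. All 26 regions passed the filter on low counts.

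The mark was measured by chromatin immunoprecipitation and sequencing, in which DNA bound to histone H3 acetylated at lysine 27 is pulled down with an antibody and its reads are counted. Livers came from mice of C57BL/6J strain background in 4 groups of 3 libraries: NCoR1 knockout (KO) mice on PTU/LID, wild-type (WT) mice on PTU/LID, KO mice on chow and WT mice on chow. PTU/LID is a low-iodine diet with 0.15% propylthiouracil, which blocks the synthesis of thyroid hormone; it was given for 3 weeks, starting when the mice were 6 weeks old, and all livers were taken on day 21. The labels give neither the deleted part of NCoR1, nor a Cre line or promoter, nor sex, and do not tie library numbers to animals. The p-values therefore rest on the spread between libraries, which may be technical. Libraries are named by their titles in the labels.

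NCoR1 is a large scaffold protein that nuclear receptors such as the thyroid hormone receptor bind when they carry no hormone. It holds and activates the deacetylase HDAC3, which takes acetyl groups off histone tails, while TBL1X, its close relative TBL1XR1 and GPS2 assemble at the N-terminal part of the scaffold. The complex is known in liver for holding down genes of lipid metabolism and genes induced by thyroid hormone.

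The 12 libraries held 2965505 to 7416187 counts, with 3719180 to 7416187 in KO and 3095704 to 4729424 in WT on PTU/LID, and 5628758 to 6707960 in KO and 2965505 to 5831372 in WT on chow. Regions of the mitochondrial chromosome took 0.717% to 17.2% of the counts, and 7 libraries were above 2%: Ptulid_NCoRKO_27ac_211, Ptulid_WT_27ac_135, all 3 KO chow libraries and the WT chow libraries Chow_WT_27ac_96 and Chow_WT_27ac_99. All 8 hepatocyte markers carried regions, with summed levels of 4018 to 4259 CPM in KO on PTU/LID, 2676 to 3958 in WT on PTU/LID, 3041 to 3437 in KO on chow and 2830 to 3697 in WT on chow. CPM are counts relative to library size, scaled by TMM factors. Endothelial markers, of which 7 of 8 had a region, summed to 614 to 664, 684.4 to 773, 638.8 to 659.9 and 804.9 to 846 CPM in the same 4 groups. Of 8 Kupffer cell markers 3 had a region, summing to 25.62 to 43.2, 25.01 to 33.01, 29.6 to 36.46 and 47.24 to 62.21 CPM, while Clec4f, Vsig4, Cd5l, Adgre1 and Marco had none. On chow the endothelial genes Ehd3 and Pecam1, 2 of 7 tested, were lower in KO than in WT. Their log2 differences were -0.68 ± 0.127 and -0.57 ± 0.123 (adjusted p 0.00321 and 0.0102 by edgeR's quasi-likelihood test). Of all genes 4.13% were called there at an adjusted p below 0.05. Of 3 Kupffer cell markers 1 was lower in KO on chow, and of 2 lymphocyte markers 1 was higher and 1 lower. On PTU/LID no marker was called between KO and WT. Stellate, cholangiocyte and lymphocyte markers had a region for 1 of 6, 2 of 5 and 2 of 6 genes. The 2 lymphocyte genes summed to 72.53 to 73.97, 48.95 to 66.35, 103.3 to 139.5 and 96.81 to 100.5 CPM in the 4 groups, lower on PTU/LID than on chow in each genotype. The 2 cholangiocyte genes summed to 43.07 to 58.57, 48.74 to 68.96, 44.76 to 53.48 and 35.55 to 48.16 CPM, and the 1 stellate gene to 1.525 to 3.719, 2.554 to 3.671, 2.241 to 3.552 and 2.83 to 4.194 CPM. Within KO and WT, 2 and 2 of 8 hepatocyte markers were called higher on PTU/LID than on chow. Of 7 endothelial markers 1 and 3 were lower. Also lower on PTU/LID were 1 of 2 lymphocyte markers in each genotype and, in WT, 1 of 3 Kupffer cell markers. In WT 1 of 2 cholangiocyte markers was higher. Of all genes 7.45% were called between diets in KO and 7.62% in WT. The part of these cell types in the results below was not tested. In bulk tissue, fewer cells of a type and less of the mark per cell cannot be told apart, and because each level is relative to the other regions, a shift of H3K27ac everywhere would not show.

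Per kilobase of acetylated sequence, Gps2 had the highest level of the 5 genes, 30.39 CPM per kb over the 12 libraries, at percentile 75.6 of all genes. Tbl1xr1 followed with 24.4 CPM per kb, then Hdac3 with 22.25, Ncor1 with 21.18 and Tbl1x with 19.98, at percentiles 49.8, 38, 31.9 and 25.9. The 15 regions of Tbl1xr1 cover 9.619 kb; the median gene has 2 regions, and 4.8% of genes have 15 or more.

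KO livers had more H3K27ac than WT livers over Tbl1xr1 and Tbl1x. Between KO and WT, 2 of the 5 genes passed on PTU/LID, both higher in KO, against 6.6% of all 11583 genes tested. On chow 1 of the 5 passed, also higher in KO, against 4.13% of all genes. Over both diets 2 genes, Tbl1x and Tbl1xr1, were higher in KO, against 11.7% of all genes. The test is edgeR's quasi-likelihood test over all genes, and a gene or region passes at a Benjamini-Hochberg adjusted p below 0.05. The median log2 difference of KO over WT was 0.17 on PTU/LID, -0.02 on chow and 0.06 over both diets for the 5 genes, against -0.0168, -0.00707 and -0.0171 for all genes.

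**Figure D1:**
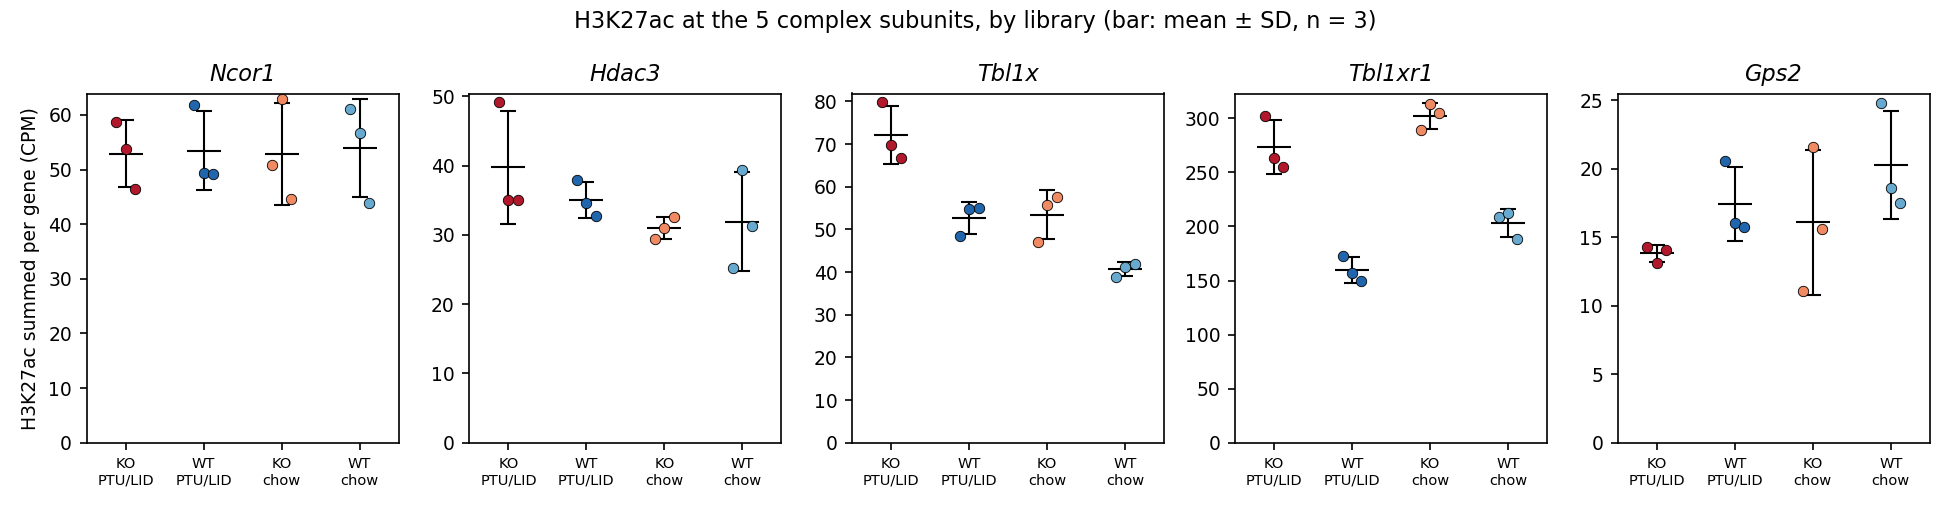
H3K27ac of each subunit gene in every library, as CPM summed over the regions of the gene, with the 4 groups from left to right as KO PTU/LID, WT PTU/LID, KO chow and WT chow; points are libraries and bars are means with SD. For Tbl1xr1 all KO libraries, 255.4 to 312.9 CPM, sit above all WT libraries, 149.2 to 212.4 CPM. Within a diet KO lay wholly above WT in 11.6% of all genes on PTU/LID and 14.5% on chow.

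The windows before the transcript starts of 3 subunit genes are shown because they lie next to regions of the mark described below: some regions called between KO and WT at Tbl1xr1 and Tbl1x, and the first region of Ncor1, which was not called. Each is the 250 bases before a RefSeq start in GRCm38.p6, read 5′ to 3′ on the strand of the gene, and capitals mark a GC box, GGGCGG on either strand.
Tbl1xr1 window, chr3:22076402-22076651, plus strand: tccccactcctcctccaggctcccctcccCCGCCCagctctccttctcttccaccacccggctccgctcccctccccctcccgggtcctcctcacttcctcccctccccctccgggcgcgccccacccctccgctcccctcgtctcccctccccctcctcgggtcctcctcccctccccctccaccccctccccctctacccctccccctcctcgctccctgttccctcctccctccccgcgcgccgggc
Tbl1x window, chrX:77510977-77511226, plus strand: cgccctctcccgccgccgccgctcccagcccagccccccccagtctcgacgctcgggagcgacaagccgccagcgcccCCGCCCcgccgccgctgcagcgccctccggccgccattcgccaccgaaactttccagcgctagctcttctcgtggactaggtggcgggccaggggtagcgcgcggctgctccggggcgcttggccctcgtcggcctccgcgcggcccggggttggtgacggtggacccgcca
Ncor1 window, chr11:62457333-62457582, minus strand: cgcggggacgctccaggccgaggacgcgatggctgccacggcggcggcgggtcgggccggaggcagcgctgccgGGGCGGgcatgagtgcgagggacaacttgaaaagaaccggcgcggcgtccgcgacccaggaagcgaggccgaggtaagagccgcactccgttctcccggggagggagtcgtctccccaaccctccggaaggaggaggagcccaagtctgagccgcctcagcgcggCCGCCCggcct
The Tbl1xr1 window, 76% G and C, lies in the gap between 2 regions of the mark. That of Tbl1x is 77.2% G and C and runs from the end of its first region into its second, and that of Ncor1 is 73.6% G and C and lies upstream of its first region. These shares stand at percentiles 97, 97.6 and 95.1 of 32851 such windows, whose median is 52.4%. GC boxes numbered 1, 1 and 2 in the windows of Tbl1xr1, Tbl1x and Ncor1, and 32.7% of all windows hold one. No window of a subunit gene, Gps2 included, holds the thyroid hormone receptor half-site AGGTCA on either strand, which 14% of all windows do, nor the direct repeat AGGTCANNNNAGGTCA, found in 0.0152% of them. The windows of Tbl1xr1 and Tbl1x lie inside the bounds of these genes given below. The sequence before those bounds was not read. The Gps2 window, 55.2% G and C, holds 2 CCAAT boxes (CCAAT, either strand), found in 33.8% of windows. TATA boxes (TATAAA), in 12.4% of windows, and E-boxes (CACGTG), in 6.02%, have no match in the windows of these 4 genes. A second listed start of Ncor1, inside the gene, has a window with no match to any of the 6 motifs.

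Ncor1, the scaffold itself, lies at chr11:62315663-62457414 on the minus strand and held 6 regions inside the gene. Its level was 58.64, 53.69 and 46.4 CPM in the 3 KO libraries on PTU/LID, against 61.77, 49.33 and 49.16 CPM in the WT libraries on PTU/LID. On chow it was 50.91, 62.95 and 44.59 CPM in KO, against 61.16, 56.69 and 43.87 CPM in WT. Summed over the gene, the 4 groups overlapped throughout. The log2 difference of KO over WT was -0.02 ± 0.11 (SE) over both diets, with a 95% interval of -0.243 to 0.212 and an adjusted p of 0.949 by edgeR's quasi-likelihood test. These counts do not check the deletion: H3K27ac lies mainly at starts and enhancers, and which part of the gene was deleted is not in the labels.

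At Ncor1 region 1 (chr11:62456631-62457105), 0.464 kb inside the annotated start, the mark averaged 14.45 ± 2.13 CPM in KO and 16.65 ± 0.875 in WT on PTU/LID, and 13.04 ± 1.78 in KO and 13.62 ± 1.44 in WT on chow (SD, n = 3 each). On PTU/LID all KO libraries were below all WT libraries there, as in 8.63% of all regions, and on chow they overlapped. Region 4 had all KO libraries below all WT libraries on chow, as in 11.6% of all regions. In no Ncor1 region did all KO libraries lie above all WT libraries of the same diet. The region with the highest count, region 6 (chr11:62351299-62352176), is deep in the gene, 86.8 kb from the nearest listed start, with 17.2 ± 5.03 CPM in KO and 17.99 ± 5.2 in WT on PTU/LID, and 20.45 ± 4.51 in KO and 18.6 ± 1.3 in WT on chow. Between KO and WT, edgeR called 0 of the 6 Ncor1 regions on PTU/LID, on chow or over both. Of all regions it called 3.86%, 2.43% and 8.04%, so 0 of 6 is near the background. Unadjusted p was below 0.05 for 0 on PTU/LID, 1 on chow and 0 over both. limma-voom also called 0, and so did DESeq2 where it gave an adjusted p. The 1 was region 4, with 4 to 18 counts per library and a log2 difference of -1.18 ± 0.54 on chow (adjusted p 0.244). Diet differences of Ncor1 were as small: the log2 difference of PTU/LID over chow was -0.001 ± 0.153 in KO and -0.006 ± 0.159 in WT.

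Hdac3, the deacetylase of the complex, lies at chr18:37936971-37955015 and held 1 region, 1548 base pairs long and centred 0.848 kb from a gene end. The gene had 49.2, 35.08 and 35 CPM in KO on PTU/LID and 37.91, 34.65 and 32.77 CPM in WT on PTU/LID. It had 29.4, 30.96 and 32.58 CPM in KO on chow and 25.16, 39.32 and 31.31 CPM in WT on chow. The library Ptulid_NCoRKO_27ac_211 was the highest and the other 11 lay between 25.16 and 39.32 CPM. KO over WT gave a log2 difference of 0.06 ± 0.12 over both diets (95% interval -0.187 to 0.308, adjusted p 0.796). PTU/LID over chow gave 0.34 ± 0.165 in KO (adjusted p 0.245) and 0.13 ± 0.174 in WT (adjusted p 0.714), neither past the threshold.

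Tbl1x, at chrX:77509549-77662722, encodes a WD40 repeat protein of the complex that binds histone tails. Its level was 79.81, 69.7 and 66.83 CPM in KO on PTU/LID, against 48.37, 54.84 and 54.91 CPM in WT on PTU/LID. On chow it was 46.97, 55.82 and 57.59 CPM in KO, against 38.79, 41.15 and 41.92 CPM in WT. On each diet every KO library lay above every WT library, as in 11.6% of all genes on PTU/LID and 14.5% on chow, and KO on chow overlapped WT on PTU/LID. Per kilobase the means were 26.33 ± 2.49 in KO and 19.24 ± 1.37 in WT on PTU/LID, and 19.52 ± 2.08 in KO and 14.83 ± 0.595 in WT on chow (CPM per kb, SD, n = 3 each).

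Both the genotype and the diet comparison called Tbl1x, each at about the same size. Over both diets KO exceeded WT 1.34-fold, a log2 difference of 0.42 ± 0.0917 (adjusted p 0.00352 by edgeR's quasi-likelihood test). Over both genotypes PTU/LID exceeded chow 1.32-fold, a log2 difference of 0.40 ± 0.0917 (adjusted p 0.00386). Diet comparisons over both genotypes called 2 of the 5 genes, Tbl1x higher and Tbl1xr1 lower, against 15.8% of all genes. The interaction of diet and genotype for Tbl1x was 0.05 ± 0.184, with a 95% interval of -0.33 to 0.427 (adjusted p 0.957). Tbl1x lies on the X chromosome and sex is not in the labels, so any part of sex was not tested. Regions of that chromosome took 0.943% to 1.03% of counts outside the mitochondrial chromosome in KO libraries and 1.02% to 1.08% in WT libraries.

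Within a single diet or genotype the calls for Tbl1x depended on single libraries. On PTU/LID, KO over WT gave 0.44 ± 0.127 (adjusted p 0.035), a call lost when any 1 of 7 libraries was left out: each of the 6 PTU/LID libraries or Chow_NCoRKO_27ac_190, with adjusted p of 0.0543 to 0.0995. On chow it gave 0.39 ± 0.132 and missed the threshold (adjusted p 0.0855). In KO, PTU/LID over chow gave 0.42 ± 0.125 (adjusted p 0.0361), and this was the 1 of 5 genes called there, against 7.45% of all genes; it was lost without any 1 of the 6 KO libraries, with adjusted p of 0.0541 to 0.185. In WT it gave 0.38 ± 0.134 (adjusted p 0.0878), and passed without Ptulid_WT_27ac_135, at 0.0447, or without Ptulid_NCoRKO_27ac_211, at just under 0.05. Among the libraries above 2% mitochondrial counts, the PTU/LID pair had 79.81 CPM in KO and 48.37 in WT, and the others had 69.7 and 66.83 in KO and 54.84 and 54.91 in WT.

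Of the 3 Tbl1x regions, 1 passed, and it lies at the start. It passed for KO against WT over both diets, against 8.04% of all regions, and for diet over both genotypes, against 11.3%. Region 1 (chrX:77509518-77510971) spans the outer bound of the gene. Its midpoint lies inside the gene, 0.982 kb upstream of the listed start. It had 35.8, 36.16 and 34.55 CPM in KO and 20.91, 27.35 and 31 CPM in WT on PTU/LID. On chow it had 21.96, 29.21 and 28.73 CPM in KO and 15.2, 18.77 and 18.18 CPM in WT. Every KO library was above every WT library on the same diet, as in 10.5% of all regions on PTU/LID and 11.9% on chow. Over both diets KO over WT gave 0.51 ± 0.134 (adjusted p 0.0132) and over both genotypes PTU/LID over chow gave 0.51 ± 0.135 (adjusted p 0.00961). Region 2, over the listed start, gave 0.32 ± 0.139 for KO over WT over both diets (adjusted p 0.152 by edgeR's quasi-likelihood test). Region 3, 6.81 kb past the listed start, gave 0.02 ± 0.257 (adjusted p 0.978 by the same test). Neither passed.

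Tbl1xr1, at chr3:22076253-22216594, encodes the closest relative of TBL1X in the complex, and of the 5 subunit genes it had the largest difference between KO and WT. Its level was 301.8, 262.9 and 255.4 CPM in KO on PTU/LID, against 172.9, 156.7 and 149.2 CPM in WT on PTU/LID. On chow it was 289.1, 312.9 and 305.4 CPM in KO, against 208.6, 212.4 and 188.9 CPM in WT. No KO library on either diet came down to the highest WT library of either diet. Within a diet, KO lay wholly above WT in 11.6% of all genes on PTU/LID and 14.5% on chow. The share of genes apart across both diets together was not counted. Per kilobase this was 28.42 ± 2.59 in KO and 16.59 ± 1.26 in WT on PTU/LID, and 31.45 ± 1.27 in KO and 21.14 ± 1.31 in WT on chow (CPM per kb, SD, n = 3 each).

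KO over WT was 1.71-fold for Tbl1xr1 on PTU/LID, a log2 difference of 0.78 ± 0.105 with a 95% interval of 0.56 to 0.993 (adjusted p 5.87e-05 by edgeR's quasi-likelihood test), and stood at rank 24 of 11583 genes by p. On chow it was 1.49-fold, 0.57 ± 0.104 with an interval of 0.36 to 0.79 (adjusted p 0.00262), at rank 49. The call held on both diets with any 1 of the 12 libraries left out, between 0.695 and 0.836 on PTU/LID and between 0.523 and 0.608 on chow. Among libraries above 2% mitochondrial counts, the levels were 301.8 CPM in KO and 172.9 in WT on PTU/LID, and 289.1, 312.9 and 305.4 in KO against 208.6 and 212.4 in WT on chow. Among the others they were 262.9 and 255.4 CPM in KO against 156.7 and 149.2 in WT on PTU/LID, and no KO chow library was among them. A yes-or-no term for libraries above 2% mitochondrial counts, called the mitochondrial term below, was also added to the fit. The difference was then 0.775 on PTU/LID and 0.513 on chow.

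The diet differences of Tbl1xr1 pointed the other way from those of Tbl1x, and their calls depended on single libraries. In WT, PTU/LID was lower than chow at 0.785-fold, a log2 difference of -0.35 ± 0.106 (adjusted p 0.0434); Tbl1xr1 was the 1 of 5 genes called in WT, against 7.62% of all genes. That call was lost when any 1 of 10 libraries was left out, all but Ptulid_NCoRKO_27ac_211 and Ptulid_WT_27ac_135, with adjusted p of 0.0502 to 0.183. In KO the difference was -0.15 ± 0.103 (adjusted p 0.461). Over both genotypes it was -0.25 ± 0.0738 (adjusted p 0.0223), lost without any 1 of 8 libraries, both of PTU/LID KO (Ptulid_NCoRKO_27ac_232 and Ptulid_NCoRKO_27ac_239), both of PTU/LID WT (Ptulid_WT_27ac_155 and Ptulid_WT_27ac_280), Chow_NCoRKO_27ac_146, Chow_NCoRKO_27ac_190, Chow_WT_27ac_96 and Chow_WT_27ac_99, at 0.0524 to 0.0743. With the mitochondrial term it was -0.158 (adjusted p 0.164).

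The interaction asks whether the effect of diet differs between genotypes. For Tbl1xr1 it was 0.20 ± 0.147 (95% interval -0.103 to 0.506, adjusted p 0.678). edgeR's quasi-likelihood test called 0 of the 5 genes for it, with 0 at an unadjusted p below 0.05, and DESeq2 and limma-voom also called 0; the background was 0.414% of genes. It called 0 of the 26 regions, with 1 at an unadjusted p below 0.05, and 0 by DESeq2 and by limma-voom, against 0.23% of all regions.

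Gps2, at chr11:69913980-69917056, encodes a small subunit that binds the scaffold together with the WD40 proteins, and held 1 region over its start (chr11:69913898-69914454). It had 14.3, 13.12 and 14.09 CPM in KO and 20.59, 16.06 and 15.75 CPM in WT on PTU/LID. On chow it had 11.05, 21.59 and 15.63 CPM in KO and 24.81, 18.59 and 17.51 CPM in WT. On PTU/LID all 3 KO libraries were below all WT libraries, as in 9.06% of all genes, and on chow they overlapped. KO over WT was -0.32 ± 0.158 over both diets (95% interval -0.648 to 0.00411, adjusted p 0.196) and did not pass. Gps2 lies 7.46 Mb from Ncor1 on the same chromosome. Within 1 Mb of Ncor1 edgeR called 1 of 56 other regions over both diets, lower in KO, or 1.79%, and within 5 Mb 22 higher and 7 lower of 300, or 9.67%; of all regions 8.04% were called.

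Counted by region, nearly all calls between KO and WT were of Tbl1xr1. On PTU/LID 5 of the 26 regions passed, all higher in KO and all of Tbl1xr1, against 3.86% of all 52606 regions tested. On chow 2 passed, both higher and both of Tbl1xr1, against 2.43%. Over both diets 10 passed, all higher, 9 of them of Tbl1xr1 and 1 of Tbl1x, against 8.04%. The median log2 difference over the 26 regions was 0.407 on PTU/LID, 0.239 on chow and 0.269 over both diets. For all regions it was -0.0141, -0.00574 and -0.0142. Tbl1xr1, with 15 of the 26 regions, weighs most in the first of these. On PTU/LID the median was 0.718 for Tbl1xr1, 0.399 for Tbl1x and 0.0498 for Ncor1. The single regions of Hdac3 and Gps2 were at 0.118 and -0.376.

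**Figure D2:**
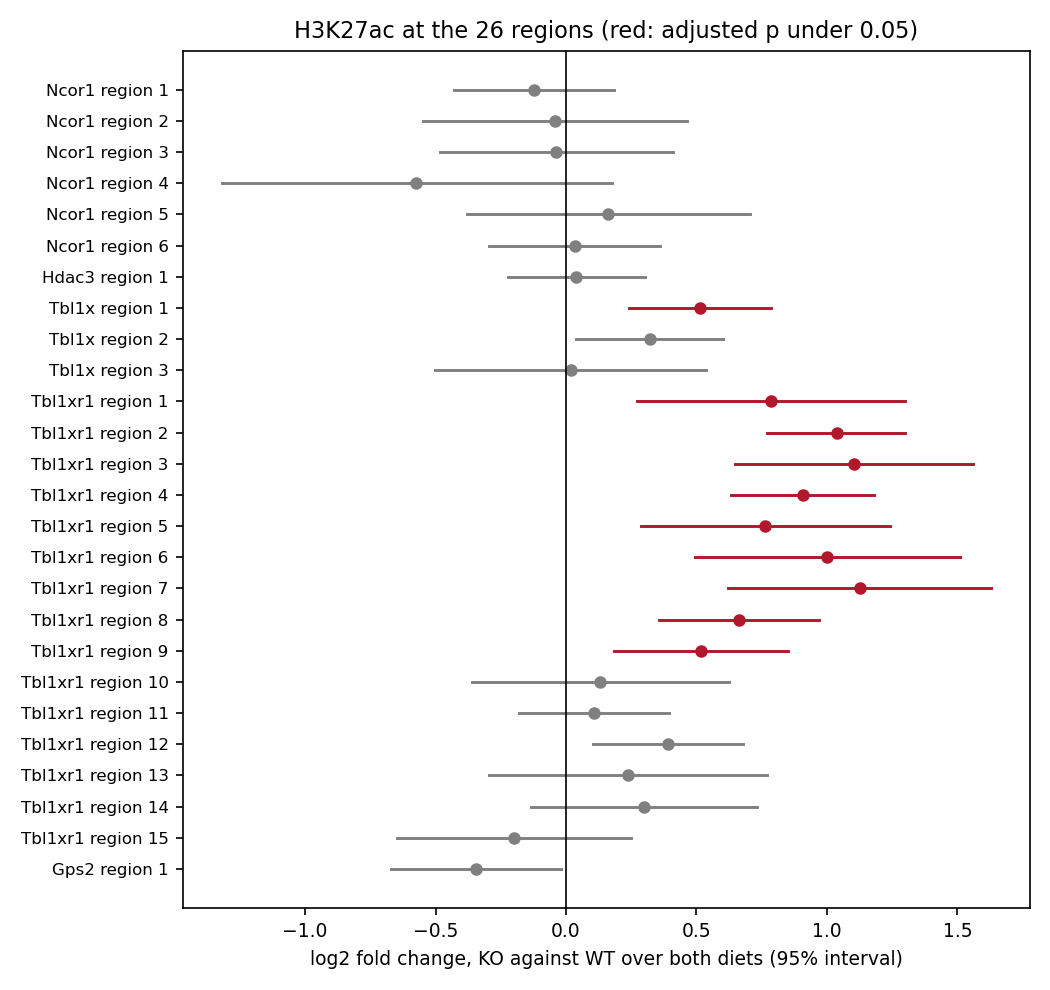
Log2 difference of KO over WT with its 95% interval for each of the 26 regions, over both diets, listed by subunit gene; points are estimates, and red marks an adjusted p under 0.05. Red are Tbl1xr1 regions 1 to 9 and Tbl1x region 1, and the intervals of all 6 Ncor1 regions include 0.

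The smallest adjusted p over both diets, 1.12e-06 by edgeR's quasi-likelihood test, belonged to Tbl1xr1 region 2 (chr3:22074333-22076186), which ends before the printed Tbl1xr1 window. It had 57.54, 71.91 and 67.49 CPM in KO on PTU/LID, against 22.7, 43.06 and 36.95 CPM in WT on PTU/LID. On chow it had 89.46, 77.41 and 94.3 CPM in KO, against 32.31, 45 and 40.5 CPM in WT. All KO libraries were above all WT libraries of both diets. Within a diet this held for 10.5% of all regions on PTU/LID and 11.9% on chow. KO over WT was 0.93 ± 0.186 on PTU/LID (adjusted p 0.00178) and 1.14 ± 0.185, or 2.21-fold, on chow (adjusted p 0.000196).

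Tbl1xr1 region 3 (chr3:22076653-22076938) begins just after the window, at the listed start. It had 8.695, 8.971 and 8.163 CPM in KO and 2.689, 2.584 and 1.437 CPM in WT on PTU/LID. On chow it had 6.714, 5.582 and 6.878 CPM in KO and 6.968, 5.798 and 3.968 CPM in WT. The genotypes were apart on PTU/LID, with KO above WT as in 10.5% of all regions, and overlapped on chow. KO over WT was 1.96 ± 0.334, or 3.89-fold, on PTU/LID (adjusted p 0.000281) and 0.25 ± 0.3 on chow (adjusted p 0.723). The interaction for this region was 1.71 ± 0.456, with an unadjusted p of 0.000561 and an adjusted p of 0.101. The difference between diets therefore did not pass over all regions. With the mitochondrial term the interaction was 1.84 (adjusted p 0.0328).

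Tbl1xr1 region 4 (chr3:22077283-22078358), 1.17 kb into the gene, had 35.89 ± 2.02 CPM in KO and 18.2 ± 2.45 in WT on PTU/LID, and 36.21 ± 4.21 in KO and 20.08 ± 4.62 in WT on chow (SD, n = 3 each). KO over WT was 0.98 ± 0.193 on PTU/LID (adjusted p 0.00147) and 0.83 ± 0.191 on chow (adjusted p 0.0116). The chow call was lost without Chow_NCoRKO_27ac_146, at 0.0638, and without Chow_WT_27ac_99, at 0.114. Regions 7 and 8, centred 2.84 and 5.01 kb into the gene, passed on PTU/LID with 1.38 ± 0.38 (adjusted p 0.0285) and 0.86 ± 0.216 (adjusted p 0.0149). The call for region 7 was lost without any 1 of the 6 PTU/LID libraries, at 0.0524 to 0.104, and that for region 8 without Ptulid_NCoRKO_27ac_211, at 0.0522, or Ptulid_WT_27ac_280, at 0.109. The annotation also lists a pseudogene, Gm5842, at chr3:22080397-22081251, which reaches the first bases of region 8.

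Over both diets, regions 1 to 9 of Tbl1xr1 passed, with log2 differences between 0.52 and 1.13, against 8.04% of all regions. Regions 10 to 15 did not, with differences between -0.20 and 0.39. Regions 1, 5 and 9 were near the threshold, with adjusted p of 0.0471, 0.0366 and 0.044; they were lost without any 1 of 9, 8 and 8 of the 12 libraries. The 7 regions within 4 kb of the start summed to 128.5 ± 4 CPM in KO and 63.98 ± 6.6 in WT on PTU/LID, and 158.9 ± 0.896 in KO and 81.79 ± 4.22 in WT on chow (SD, n = 3 each). The 8 regions farther in summed to 119.2 ± 23.1 CPM in KO and 85.71 ± 13.3 in WT on PTU/LID, and 119.6 ± 10.7 in KO and 104.2 ± 10.1 in WT on chow. The split at 4 kb was chosen after the values were seen and is a description.

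Between diets few of the 26 regions were called. In KO 1 passed, against 6.21% of all regions, which is below the background share, and in WT 2 passed, against 3.7%; all were of Tbl1xr1 and lower on PTU/LID. Region 1 (chr3:22073225-22073572), 3.25 kb upstream of the start, had 2.046, 5.245 and 3.936 CPM in KO on PTU/LID and 9.073, 10.05 and 8.864 CPM in KO on chow. In WT it had 3.286, 1.938 and 1.026 CPM on PTU/LID and 5.701, 8.006 and 5.125 CPM on chow. In each genotype all PTU/LID libraries were below all chow libraries, as in 11.6% of all regions in KO and 12.1% in WT. PTU/LID over chow was -1.24 ± 0.311 in KO (adjusted p 0.00932) and -1.64 ± 0.395 in WT (adjusted p 0.013), the WT call being lost without Ptulid_WT_27ac_155, Ptulid_WT_27ac_280 or Chow_WT_27ac_99, at 0.0596, 0.138 and 0.0821. With the mitochondrial term the KO call of region 1 was lost, at -1.15 (adjusted p 0.0787). Region 2 of Tbl1xr1 then passed as lower on PTU/LID in KO, at -0.649 (adjusted p 0.0124). All 3 KO chow libraries are above 2% mitochondrial counts.

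Region 3 of Tbl1xr1 was the other region lower on PTU/LID in WT, at -1.29 ± 0.364 (adjusted p 0.0372), against 0.42 ± 0.273 in KO (adjusted p 0.434). The WT call was lost without Ptulid_WT_27ac_155, Ptulid_WT_27ac_280, Chow_WT_27ac_96 or Chow_WT_27ac_99, at 0.0772, 0.22, 0.144 and 0.105. Over both genotypes 3 of the 26 regions passed for diet, against 11.3% of all regions, so the share was near the background. They were Tbl1x region 1, higher on PTU/LID, and Tbl1xr1 regions 1 and 7, lower at -1.44 ± 0.251 (adjusted p 9.9e-05) and -0.78 ± 0.253 (adjusted p 0.0371). The diet call of region 7 was lost when any 1 of 8 libraries was left out, with adjusted p of 0.058 to 0.147. These were all but Ptulid_NCoRKO_27ac_211, Ptulid_WT_27ac_280, Chow_NCoRKO_27ac_122 and Chow_NCoRKO_27ac_190. It was also lost with library totals alone (adjusted p 0.0615), DESeq2 (0.0682), limma-voom (0.0794) and the mitochondrial term (0.14). Any difference among the 4 groups was called for 2 of the 5 genes, Tbl1x and Tbl1xr1, against 22.3% of all genes, and for 9 of the 26 regions, against 16.7%.

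The 50 kb limit leaves out a long stretch of acetylated chromatin whose nearest protein-coding gene is also Tbl1xr1. It holds 25 regions, between 314 and 68.6 kb upstream of the Tbl1xr1 start, which are no members and were picked after the values were seen. The next protein-coding genes, Agtr1b and Naaladl2, lie 1710 and 1580 kb from Tbl1xr1, and the annotation lists the long non-coding RNA genes 7530428D23Rik and Gm31813 within the stretch. The member farthest outside its gene, Tbl1xr1 region 1, lies 2.85 kb away, and the nearest region beyond the limit, 68.6 kb from the start, had 2.361 CPM in KO and 1.719 in WT on PTU/LID, and 2.381 in KO and 1.663 in WT on chow.

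In this stretch upstream of Tbl1xr1 the summed mark was 438.1, 560.2 and 492.9 CPM in KO on PTU/LID, against 253.9, 233.6 and 196.3 CPM in WT on PTU/LID. On chow it was 491, 590.4 and 609.4 CPM in KO, against 349.4, 326.3 and 287.7 CPM in WT. Every KO library exceeded every WT library, and no share over other such stretches was counted. Of the 25 regions, 12 were higher in KO on PTU/LID, or 48%, 10 on chow, or 40%, and 16 over both diets, or 64%; among all regions 3.17%, 1.61% and 5.57% were higher in KO. The widest, chr3:21983308-21988167, is 4860 base pairs long and 90.9 kb upstream, with 133.9 ± 12.7 CPM in KO and 52.91 ± 6.99 in WT on PTU/LID, and 160.2 ± 22.1 in KO and 89.28 ± 10.8 in WT on chow (SD, n = 3 each).

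**Figure D3:**
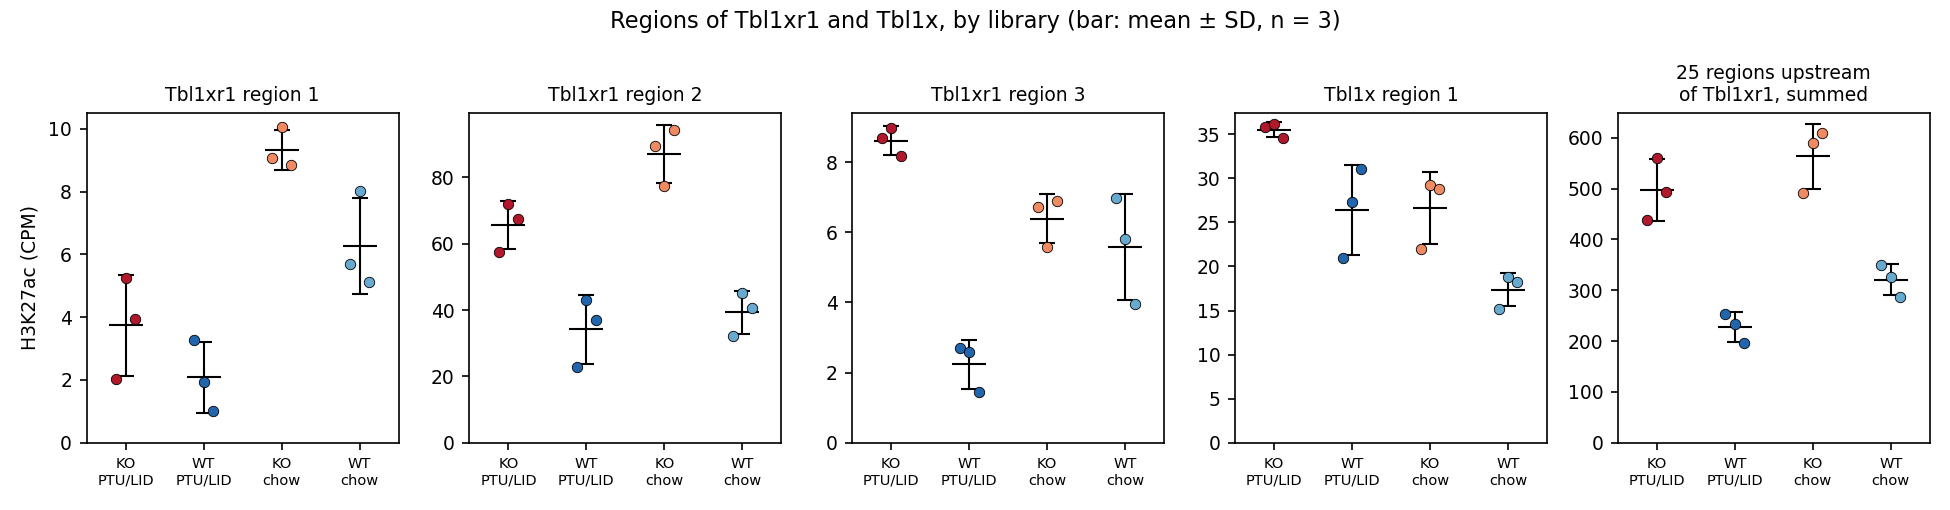
CPM of Tbl1xr1 regions 1 to 3, Tbl1x region 1 and the sum of 25 regions farther upstream of Tbl1xr1, in each library, by group from left to right as KO PTU/LID, WT PTU/LID, KO chow and WT chow; points are libraries and bars are means with SD (n = 3 each). In Tbl1xr1 region 2 all KO libraries, 57.54 to 94.3 CPM, lie above all WT libraries, 22.7 to 45 CPM. Within a diet KO lay wholly above WT in 10.5% of all regions on PTU/LID and 11.9% on chow.

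**Figure D4:**
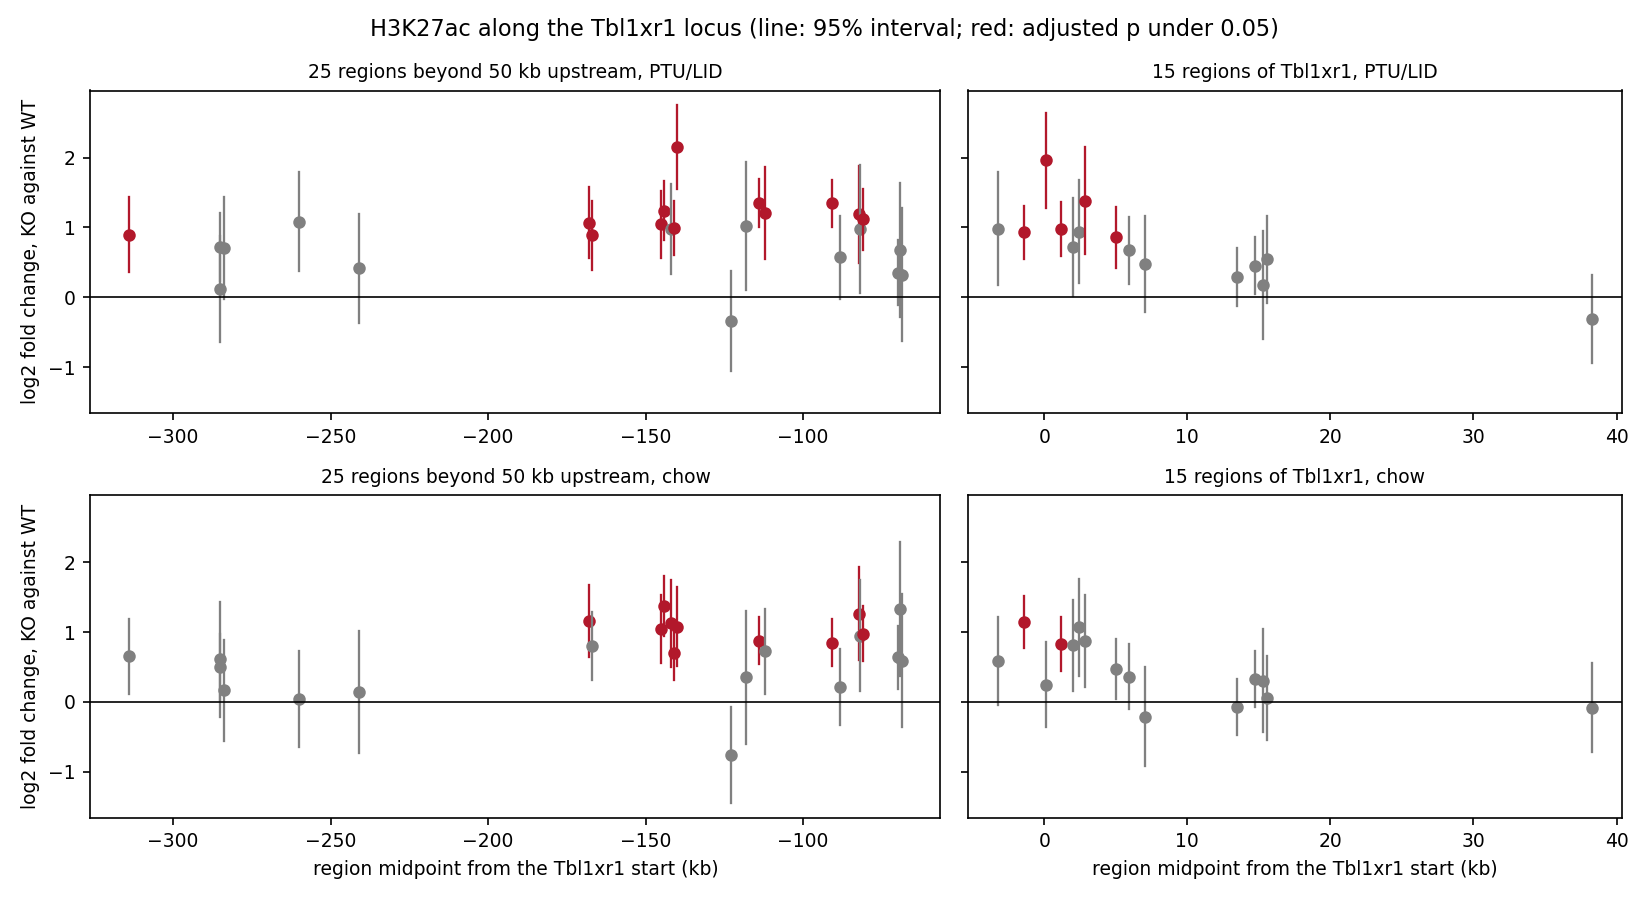
Regions around Tbl1xr1 by distance from its transcript start in kb, with the log2 difference of KO over WT and its 95% interval on the vertical axis, on PTU/LID (upper panels) and on chow (lower panels); red marks an adjusted p under 0.05. Most of the regions upstream, between 314 and 68.6 kb before the start, lie above 0 on both diets.

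Counting those regions for Tbl1xr1, an alternative with a limit of 500 kb added after seeing the data, gave KO over WT a log2 difference of 1.03 on PTU/LID (adjusted p 5.38e-06) and 0.724 on chow (adjusted p 0.000378). With regions inside the gene alone, which leaves out regions 1 and 2, Tbl1xr1 lost the call on chow at 0.378 (adjusted p 0.116).

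Other corepressor genes were read from a list of 22, of which 21 had a region. On PTU/LID 4 of the 21 were called, all higher in KO, against 6.6% of all genes, with a median log2 difference of -0.00242 against -0.0168 for all genes. Among them were Hdac5, a class IIa deacetylase, at 0.59 ± 0.104 (adjusted p 0.000773), Nr0b2, the receptor-like repressor of bile acid synthesis also called SHP, at 0.49 ± 0.119 (adjusted p 0.0123), and Nrip1, at 0.50 ± 0.139 (adjusted p 0.0302). Hdac5 had 163.4 ± 6.03 CPM in KO and 108.8 ± 4.3 in WT on PTU/LID, and 137.9 ± 4.65 in KO and 114.5 ± 7.73 in WT on chow (SD, n = 3 each). On chow the log2 difference of Hdac5 was 0.27 ± 0.104 (adjusted p 0.135). Over both diets 6 were called, against 11.7% of all genes: 5 were higher, among them Hdac5, Nr0b2, Nrip1 and Sin3a, the scaffold of another deacetylase complex, at 0.24 ± 0.071 (adjusted p 0.0278), and 1 was lower, Ctbp2 at -0.44 ± 0.141 (adjusted p 0.0422). For diet over both genotypes, 3 of the 21 were called, a share below the 15.8% of all genes; 1 was higher on PTU/LID, Hdac4 at 0.28 ± 0.0762 (adjusted p 0.0127), and 2 were lower, Coro2a at -0.55 ± 0.13 (adjusted p 0.00486) and Tle1 at -0.27 ± 0.087 (adjusted p 0.035).

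Of 16 receptors and repressors known to recruit NCoR, all had a region. On PTU/LID 2 of the 16 were called, against 6.6% of all genes, both higher in KO: Bcl6, a transcriptional repressor, at 0.465 ± 0.0983 (adjusted p 0.0039) and Esr1, the oestrogen receptor, at 0.49 ± 0.141 (adjusted p 0.0369), and on chow 1, against 4.13%, Bcl6 at 0.45 ± 0.0981 (adjusted p 0.0107). Over both diets 7 were called, against 11.7% of all genes: 5 higher, Bcl6, Esr1, Ppard, Nr1d1 and Nr1d2, and 2 lower, the liver X receptors Nr1h3 at -0.34 ± 0.0856 (adjusted p 0.0102) and Nr1h2 at -0.36 ± 0.103 (adjusted p 0.0248). The median of the 16 was 0.108 on PTU/LID, 0.152 on chow and 0.129 over both diets. Between diets 3 of the 16 were called in KO, against 7.45% of all genes, and 2 in WT, against 7.62%. Esr1 and Bcl6 were lower on PTU/LID in both genotypes, at -0.52 ± 0.138 and -0.33 ± 0.0977 in KO (adjusted p 0.0194 and 0.0393) and at -0.54 ± 0.142 and -0.34 ± 0.0984 in WT (adjusted p 0.0224 and 0.0349), and Nr3c1 was lower in KO at -0.41 ± 0.102 (adjusted p 0.0138).

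The genes whose level most resembled each subunit gene across the 12 libraries were named by Pearson's r of log2 CPM among 11582 other genes. Libraries share their depth and group, so these values are a description. For Tbl1xr1 they were Sult2a2 at 0.959, Traf3ip2 at 0.943 and Tmem186 at 0.943. For Tbl1x they were Chdh at 0.972, Zmiz1 at 0.942 and Lax1 at 0.927. Ncor1 was closest to Hhex at 0.969, Daam1 at 0.842 and Ggact at 0.83. Hdac3 was closest to Usp38 at 0.88, Cnih1 at 0.874 and Polr3d at 0.872, and Gps2 to Fsip1 at 0.937, Pla2r1 at 0.914 and Pola2 at 0.886.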

How the data were processed

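The values are counts: the authors deposited a single table giving, for 52645 regions, the reads of each of the 12 H3K27ac libraries. The submitters' processing notes name MACS2 2.1.1, bedtools 2.26.0, Bowtie2 2.2.1, bcl2fastq 2.17.1.14 and Picard 2.8.1 and the build mm10, without saying what each did. The making of the shared regions and any removal of duplicates were not given in the sources used here. Input libraries, 4 in number, were not analysed here. Libraries were grouped by diet and genotype as their titles give them.

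Regions were assigned to genes by RefSeq gene bounds of GRCm38.p6, the assembly of mm10, and counts were summed per gene; 4 regions of the mitochondrial chromosome stayed in the region table. Gene and region CPM have different denominators and are not comparable. The tests used edgeR 4.0.16 in R 4.3.3: TMM factors, filterByExpr with a minimum count of 10, 1 mean per group over all 12 libraries, glmQLFit with robust estimates and glmQLFTest, with Benjamini-Hochberg adjustment over all 11583 genes or 52606 regions that passed. The SE is the absolute log2 difference over the square root of F. On simulated KO and WT chow counts with 200 changed genes or regions, 1.5-fold, 2-fold and 3-fold higher genes were recovered at 48%, 86% and 100%. Such regions were recovered at 12%, 44% and 96%, so a missed threshold at a single region says little about differences below 3-fold. In the data 1278 regions were called on chow, so these recovery shares need not carry over to it. Intervals cover the spread between libraries.

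Alternatives were RLE factors, library totals alone, DESeq2 1.42.0, limma-voom with cyclic loess (limma 3.58.1), no filter, a term for libraries above 2% mitochondrial counts, only the 2 groups compared, each library left out in turn, other rules for assigning regions to genes and, added after seeing the data, a 500 kb limit. The members, gene lists and marker lists were chosen with earlier results of these data known. All members are named; list genes are named when they pass, at most 6 per list and comparison, and Sin3a in any case, and 1 gene of the corepressor list is counted but not reported here by name; the 3 most similar genes per member are named. Promoter windows came from RefSeq, GRCm38.p6, with an entry for 4 of the 5 members.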

Additional observations from a re-analysis of the deposited data

How the results depend on the processing

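Tbl1xr1 stayed higher in KO on PTU/LID under all 24 alternatives, at 0.627 to 1.09, and on chow under 23 of 24, the values over all 24 running from 0.378 to 1.02. Tbl1x stayed higher in KO over both diets, at 0.305 to 0.453, and on PTU/LID over both genotypes, at 0.373 to 0.443, under all 23 alternatives; its call for KO over WT on PTU/LID held under 14 of 24 and its diet call in KO under 16 of 24. The diet calls of Tbl1xr1 held under 8 of 24 in WT and 12 of 23 over both genotypes. No called value changed sign. In all, the losses just given included, 892 values at gene level and 3925 at region level kept their side of the threshold, 46 and 80 lost it and 2 and 14 gained it, while 34 region values had no adjusted p from DESeq2 and were left out. Scaling by library totals alone shifted the median gene by -0.134 for KO over WT on PTU/LID and by -0.121 on chow; Tbl1xr1 then gave 0.663 and 0.459, and Tbl1x on PTU/LID 0.33 (adjusted p 0.144).

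Numbers of subunit genes called changed as follows. PTU/LID against chow in KO called 0 with the mitochondrial term and 0 with regions at transcript starts, and 0 to 1 with 1 library left out. In WT it called 0 with RLE factors, 0 with library totals, 0 with only the 2 groups, and 0 with regions inside the gene, within 10 kb or at starts, and 0 to 2 with 1 library left out. KO against WT on PTU/LID called 1 with library totals, with only the 2 groups and with regions inside the gene, and 1 to 2 with 1 library left out; on chow it called 0 with regions inside the gene. Diet over both genotypes called 1 with the mitochondrial term, with regions inside the gene and at starts, and 1 to 2 with 1 library left out. These counts of 0 are from edgeR's quasi-likelihood test; with the settings of the report it called 1 in KO, 1 in WT and 1 for KO against WT on chow, with 1, 2 and 2 at an unadjusted p below 0.05, and DESeq2 and limma-voom each called 1 in all 3.

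Of the 26 regions, PTU/LID against chow in KO called 2 with limma-voom and, with the mitochondrial term, 1 that is another region (Tbl1xr1 region 2 in place of region 1), and in WT 1 with limma-voom, the mitochondrial term or only the 2 groups, and 0 to 3 with 1 library left out. KO against WT called 3 to 5 on PTU/LID with 1 library left out, 1 on chow with library totals and 1 to 2 with 1 library left out, and 6 over both diets with library totals and 7 to 10 with 1 library left out. The interaction called 1, Tbl1xr1 region 3, with the mitochondrial term. The cause was not tested for any of these. No subunit region lies on the mitochondrial chromosome, and leaving its regions out could not change the gene counts, so that alternative was run for regions alone. No paired analysis was possible because each H3K27ac library number occurs in 1 group and is shared by no other group compared.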
